A study of Mus musculus with 6 samples.

Results

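The nuclear-encoded subunits of respiratory complexes I and II were described in the lungs of mice that had breathed hydrogen gas. Genes were taken by symbol: those named Ndufa, Ndufab, Ndufb, Ndufc, Ndufs or Ndufv with a number, and Sdha to Sdhd, wherever the array annotation gave a probe set exactly 1 gene symbol. The rule used no measured value. It found 37 genes with 70 probe sets, of 17097 genes and 45037 probe sets tested. Complex I gave 32 of these genes, complex II gave 4, and the remaining gene was Ndufa4, which was first described in complex I and is now assigned to complex IV. Ndufs5, Ndufa13, Ndufb1 and Ndufb6 were not matched by the rule and were not analysed here, nor were the subunits encoded in mitochondrial DNA.

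The hydrogen group was 3 male BALB/c mice kept for 3 weeks in air with 2% molecular hydrogen, and the control group was 3 male mice of the same strain that breathed normal air. All were 10 weeks old when the groups were formed. Total RNA of each excised lung was hybridised to its own Affymetrix mouse array, and the deposited values are log2 signals, a scale on which 1 unit is a doubling. The comparison asks which transcripts differ in whole lung after the exposure, and in whole tissue fewer cells of a type and less RNA per cell cannot be told apart.

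Complex I is the entry point of NADH into the mitochondrial electron transport chain. Its matrix arm takes electrons from NADH through a flavin and a row of iron-sulfur clusters to ubiquinone, and its membrane arm pumps protons. Complex II is succinate dehydrogenase, an enzyme of the citric acid cycle that also hands its electrons to ubiquinone, without pumping protons. A small catalytic core of complex I is shared with bacteria, while the many accessory subunits serve its assembly and stability. In lung, mitochondria are abundant in alveolar type 2 cells, which make surfactant, and in ciliated airway cells.

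Complex I and II transcripts were mostly lower in the hydrogen group, and their median stayed below 0 under every scaling tried. Taking for each gene its brightest probe set, the one with the highest mean over all arrays, 25 of 37 genes fell (67.6%) and 0 rose at a limma adjusted p under 0.05 (Benjamini-Hochberg over all probe sets, two-sided). Over all genes, 25.9% were lower and 25.5% were higher by the same rule. The median log2 fold change of the 37 genes, hydrogen minus control, was -0.30, which is a change of -18.8%, against 0.01 over all genes. The values of the genes that fell ran from -0.61 to -0.16 with adjusted p from 0.000469 to 0.0468. The remaining 12 genes ran from -0.20 to -0.04 with adjusted p from 0.0533 to 0.55. The 3 hydrogen arrays lay below all 3 control arrays in 32 of 37 genes, which was so for 29.9% of all genes.

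The count depended on how the arrays were scaled: 15 genes were lower after cyclic loess (40.5%, against 16.1% of all genes) and 14 after renewed quantile normalisation (37.8%, against 14.5% of all genes), with a median of -0.15 each time and 27 of 37 genes below 0. A median of -0.39 and 33 lower genes followed from centring each array on its median. The labels name no batch, so a difference between processing batches and the hydrogen exposure cannot be told apart.

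**Figure D1:**
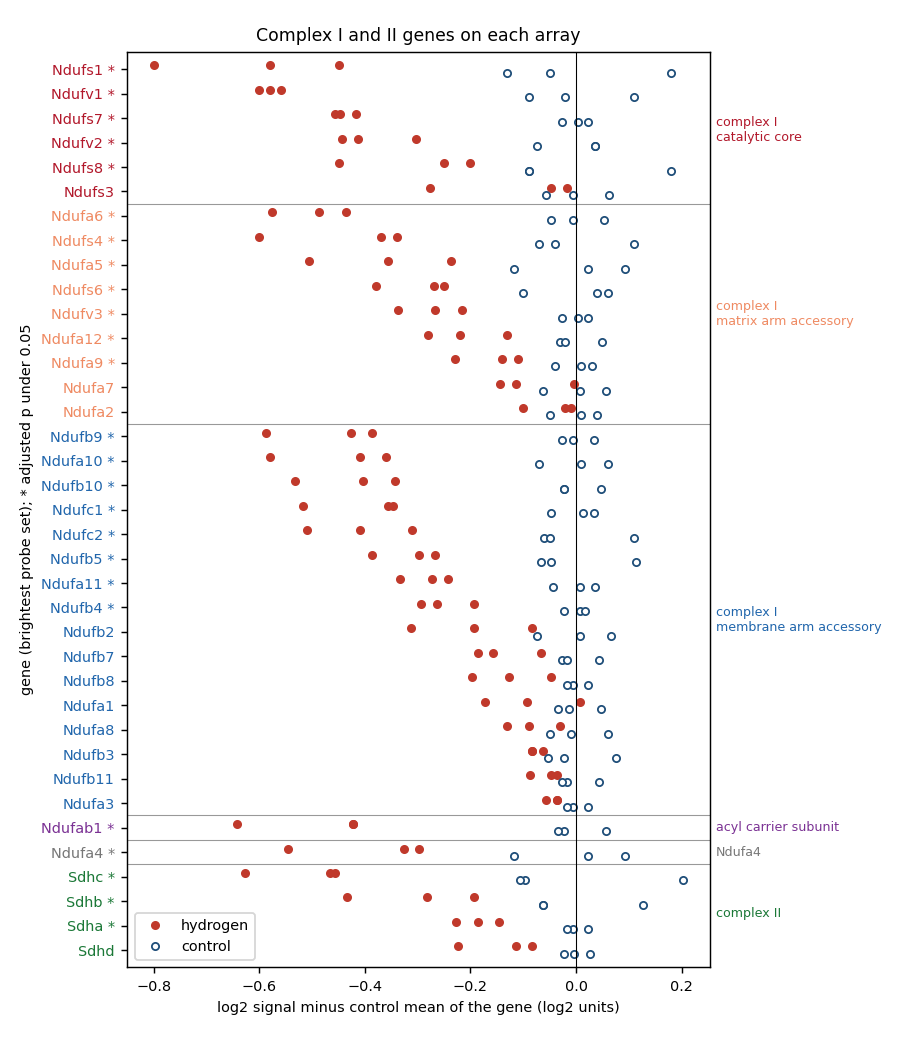
Log2 signal of each of the 37 genes on each array, minus the gene's mean over the control arrays (horizontal axis, log2 units), for hydrogen arrays (filled points) and control arrays (open points), by subunit group. A star marks the 25 genes with a limma adjusted p under 0.05, of which 15 remained under it after cyclic loess. The hydrogen points lie left of all control points in 32 genes, with Ndufs1 farthest at -0.61 on average.

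Promoters were read for 33 of the 37 genes from RefSeq (GRCm38.p6), each from 250 bases before to 50 bases after the gene's start, and searched on both strands for the letters of 4 factors linked to mitochondrial genes. The core of NRF1, CGCANGCG, was found in 11 of 33 promoters (33.3%), against 8.42% of 27025 promoters of all genes and 13.4% of those of genes on the array. AAGATGGC, bound by YY1, was found in 7 (21.2%), against 2.88% of all promoters and 3.75% of those on the array. CCGGAAG, bound by the ETS factor GABPA, was found in 5 (15.2%), against 9.12% and 13.8%, and AAGGTCA, bound by the estrogen-related receptors, in 3 (9.09%), against 4.66% and 3.87%. At least 1 of the 4 was present in 22 of 33 promoters (66.7%), against 22.2% of all promoters. That share is not given for genes on the array, where NRF1, YY1 and GABPA letters were each more common than among all promoters. No matches of different motifs overlapped in the members' windows. These are matches of letters and not evidence of binding.

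The stretch from position -200 to -1 before the start is shown for Sdha and Ndufb4, which hold 3 NRF1 matches each, and for Sdhd, which holds the NRF1 and GABPA letters in the same window. Capitals mark the matches, on either strand, and AAGGTCA in Ndufb4 is the receptor motif.
Sdha (chr13:74350241-74350440, minus strand): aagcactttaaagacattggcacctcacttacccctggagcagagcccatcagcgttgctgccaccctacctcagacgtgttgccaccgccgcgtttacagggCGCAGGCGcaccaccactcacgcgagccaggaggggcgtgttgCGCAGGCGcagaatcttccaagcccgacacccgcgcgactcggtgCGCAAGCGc
Ndufb4 (chr16:37654369-37654568, minus strand): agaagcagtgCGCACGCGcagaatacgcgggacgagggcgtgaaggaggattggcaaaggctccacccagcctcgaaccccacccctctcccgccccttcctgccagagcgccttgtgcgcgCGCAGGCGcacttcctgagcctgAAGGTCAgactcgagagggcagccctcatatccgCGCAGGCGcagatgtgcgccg
Sdhd (chr9:50603850-50604049, minus strand): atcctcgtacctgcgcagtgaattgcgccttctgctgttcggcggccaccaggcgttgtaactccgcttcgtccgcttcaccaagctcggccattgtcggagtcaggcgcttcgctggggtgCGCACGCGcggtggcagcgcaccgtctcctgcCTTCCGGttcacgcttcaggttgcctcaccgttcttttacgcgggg

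The 7 matches to the YY1 letters all lay on the gene's own strand within 50 bases after the start, which held for 33.3% of the 778 promoters with this motif among all genes. They are shown in windows of 30 bases, with the match in capitals.
Ndufs7 (chr10:80249462-80249491, plus strand): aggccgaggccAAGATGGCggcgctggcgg
Ndufs4 (chr13:114388045-114388074, minus strand): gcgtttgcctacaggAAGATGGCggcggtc
Ndufs6 (chr13:73328433-73328462, minus strand): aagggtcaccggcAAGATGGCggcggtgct
Ndufa9 (chr6:126849097-126849126, minus strand): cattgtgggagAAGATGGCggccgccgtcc
Ndufa3 (chr7:3617384-3617413, plus strand): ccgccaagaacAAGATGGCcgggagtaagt
Ndufb8 (chr19:44555393-44555422, minus strand): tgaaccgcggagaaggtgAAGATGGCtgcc
Ndufc1 (chr3:51408915-51408944, minus strand): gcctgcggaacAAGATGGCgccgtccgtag

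Fold changes of genes with and without each motif are given side by side, as a description with no test. Of the 11 genes with NRF1 letters 8 fell, with a median log2 fold change of -0.25, and of the 22 without them 14 fell, with a median of -0.30. Of the 7 genes with YY1 letters 5 fell (median -0.30), and of the 26 without them 17 fell (median -0.28). The 5 genes with GABPA letters had 2 that fell (median -0.14), against 20 of 28 without (median -0.29). The 3 genes with the receptor motif had 1 that fell (median -0.20), against 21 of 30 without (median -0.30).

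The catalytic core of complex I had 5 of 6 genes lower and a median of -0.41. Among the 166 genes of the array in the middle of this list's levels, 9.0 to 9.15, 41.6% were lower, with a median of -0.14. Ndufs1, Ndufs7, Ndufs8 and Ndufv2 lay outside that range, so it does not describe genes at their levels. Ndufs1, which carries iron-sulfur clusters of the NADH-oxidising part, had log2 signals of 8.14, 7.79 and 8.01 in the hydrogen lungs, against 8.77, 8.54 and 8.46 in the control lungs. Its log2 fold change of -0.61 (SE 0.11, limma adjusted p = 0.00263) was the lowest of the 37 genes and corresponds to a ratio of 0.655. Ndufv1, the subunit that binds NADH and the flavin, had 8.72, 8.70 and 8.74 in the hydrogen lungs, against 9.41, 9.21 and 9.28 in the control lungs, a log2 fold change of -0.58 (SE 0.06, limma adjusted p = 0.000469). Neither gene had an overlap between the groups. The further probe set of Ndufv1, however, had 8.63, 8.54 and 8.64 against 8.70, 8.68 and 8.73, and its log2 fold change of -0.10 did not pass (limma adjusted p = 0.164). The probe set of Ndufv1 that fell is of the kind that can detect several transcripts of a gene.

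Ndufs7, which holds the last iron-sulfur cluster before ubiquinone, had 8.96, 8.95 and 8.99 in the hydrogen lungs, against 9.43, 9.38 and 9.41 in the control lungs. The difference of -0.44 (SE 0.05, limma adjusted p = 0.000549) was many times the spread within either group, and its further probe set fell as well, by 0.28 on the log2 scale (adjusted p = 0.00457). Its promoter is the first of those shown with the YY1 letters. Ndufv2, an iron-sulfur subunit next to Ndufv1, had 9.54, 9.40 and 9.43 against 9.88, 9.77 and 9.88 in the control lungs, and its 2 probe sets fell by 0.39 and 0.37 on the log2 scale (limma adjusted p = 0.00189 and 0.00165). In both, every hydrogen lung was below every control lung.

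Ndufs8, a further iron-sulfur subunit of the path to ubiquinone, gave different answers with its 4 probe sets. The brightest had 8.89, 8.69 and 8.94 in the hydrogen lungs, against 9.32, 9.05 and 9.05 in the control lungs, a log2 fold change of -0.30 (SE 0.09, limma adjusted p = 0.0307). Another fell by 0.42 (adjusted p = 0.00169), and a probe set of the kind that can cross-hybridise stood at -0.03 (adjusted p = 0.763). The dimmest of the 4 rose, with 6.91, 6.78 and 6.82 in the hydrogen lungs against 6.07, 6.24 and 6.42 in the control lungs, a log2 fold change of 0.59 (SE 0.09, limma adjusted p = 0.00141). No array of either group overlapped with the other in that probe set, so the direction for Ndufs8 depends on which probe set is read. Ndufs3, a core subunit without a cluster of its own, was the core gene that did not pass: it had 9.07, 8.81 and 9.04 in the hydrogen lungs against 9.15, 9.03 and 9.08 in the control lungs, a log2 fold change of -0.11 (SE 0.08, limma adjusted p = 0.264), and its groups overlapped.

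The matrix arm accessory subunits had 7 of 9 genes lower and a median of -0.27. In the middle of this list's levels, 8.87 to 9.73, 42.2% of all genes were lower, with a median of -0.14. Ndufa6, a protein of the LYR family that docks the acyl carrier subunit, had 9.20, 9.06 and 9.15 in the hydrogen lungs, against 9.63, 9.59 and 9.69 in the control lungs, a log2 fold change of -0.50 (SE 0.06, limma adjusted p = 0.000625). Ndufs4, whose loss causes the mitochondrial disease Leigh syndrome in humans, had 7.45, 7.19 and 7.42 against 7.90, 7.72 and 7.75, a log2 fold change of -0.44 (SE 0.08, limma adjusted p = 0.00395). Ndufa5 had 8.26, 8.11 and 8.38 against 8.71, 8.64 and 8.50, a log2 fold change of -0.37 (SE 0.08, limma adjusted p = 0.00849), and its further probe set fell by 0.24. In all 3 genes every hydrogen lung was below every control lung. The 2 further probe sets of Ndufs4 lay below the median level of all probe sets. The first of these had 4.20, 4.31 and 4.15 in the hydrogen lungs against 4.31, 4.19 and 4.41 in the control lungs (log2 fold change -0.08), and the other 3.70, 3.63 and 3.78 against 3.71, 3.51 and 3.67 (0.07), with overlapping groups.

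Also lower were Ndufs6, which binds zinc (log2 fold change -0.30, limma adjusted p = 0.00714), Ndufv3 (-0.27, adjusted p = 0.00503) and Ndufa12 (-0.21, adjusted p = 0.021), whose 3 probe sets all fell, by 0.21 to 0.48. Ndufa9, which binds NADPH near the ubiquinone site, stood at the edge of the threshold at -0.16 (adjusted p = 0.0468), and turned to 0.01 after cyclic loess and 0.02 after renewed quantile normalisation. The highest fold changes of this arm were those of Ndufa2 and Ndufa7. Ndufa2 had 9.65, 9.74 and 9.73 in the hydrogen lungs against 9.70, 9.76 and 9.79 in the control lungs, a log2 fold change of -0.04 (SE 0.06, limma adjusted p = 0.55). Ndufa7 had 9.79, 9.76 and 9.90 against 9.84, 9.96 and 9.91, a log2 fold change of -0.09 (SE 0.06, limma adjusted p = 0.278). Both genes had overlapping groups. Of the 5 probe sets of Ndufa7 the dimmest fell, with 7.03, 6.90 and 7.04 in the hydrogen lungs against 7.36, 7.40 and 7.34 in the control lungs (log2 fold change -0.38, limma adjusted p = 0.0017), while the other 4 lay between -0.12 and 0.01.

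The membrane arm accessory subunits were divided, with 8 of 16 genes lower, 8 not past the threshold and a median of -0.22. All genes in the middle of this list's levels, 8.94 to 9.66, had 42.3% lower and a median of -0.14. The share of this arm was close to theirs. Ndufb9, the LYR protein of this arm, had 9.50, 9.34 and 9.54 in the hydrogen lungs, against 9.92, 9.90 and 9.96 in the control lungs, a log2 fold change of -0.47 (SE 0.07, limma adjusted p = 0.00111). Ndufa10, related in fold to nucleoside kinases, had 9.27, 9.05 and 9.22 against 9.64, 9.69 and 9.56, a log2 fold change of -0.45 (SE 0.07, limma adjusted p = 0.00181). Ndufb10, on the intermembrane space side, had 8.53, 8.40 and 8.59 against 8.98, 8.91 and 8.91, a log2 fold change of -0.43 (SE 0.06, limma adjusted p = 0.00145). Each of these had every hydrogen lung below every control lung. Ndufc1 and Ndufc2 followed at -0.41 each (limma adjusted p = 0.00171 and 0.00293), then Ndufb5 at -0.32 (0.00615). The further probe sets of Ndufc1 and Ndufb5 fell as well, by 0.34 and 0.35.

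At the other end of this arm, Ndufa3 had 10.11, 10.11 and 10.09 in the hydrogen lungs, against 10.14, 10.17 and 10.13 in the control lungs, a log2 fold change of -0.04 (SE 0.05, limma adjusted p = 0.502). Ndufb11, the brightest of all the members' probe sets, had 10.85, 10.80 and 10.84 against 10.87, 10.86 and 10.93, a log2 fold change of -0.06 (SE 0.05, limma adjusted p = 0.401). These groups did not overlap, yet they were within a few hundredths of each other. Ndufa1, Ndufa8, Ndufb3 and Ndufb8 lay at -0.09, -0.08, -0.08 and -0.12 (limma adjusted p = 0.286, 0.262, 0.29 and 0.112). Ndufb3 and Ndufb8 had groups without overlap, while those of Ndufa1 and Ndufa8 overlapped.

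In 6 membrane arm genes the probe sets of a gene gave different calls. Ndufb7 had 9.56, 9.53 and 9.65 in the hydrogen lungs against 9.76, 9.69 and 9.70 in the control lungs with its brightest probe set (log2 fold change -0.14, limma adjusted p = 0.0792), but 8.69, 8.57 and 8.62 against 9.00, 9.11 and 9.02 with its second (-0.42, adjusted p = 0.00115). Ndufb2 had 8.90, 8.67 and 8.79 against 9.05, 8.91 and 8.99 (-0.20, limma adjusted p = 0.0533), and 8.19, 8.08 and 8.22 against 8.67, 8.60 and 8.55 with its second (-0.44, adjusted p = 0.00107). Ndufb11 had a dimmer probe set with 9.47, 9.21 and 9.52 in the hydrogen lungs against 9.74, 9.81 and 9.92 in the control lungs (-0.42, limma adjusted p = 0.00602), while its second, with 10.33, 10.33 and 10.34 against 10.43, 10.41 and 10.45, stayed at -0.10 (adjusted p = 0.142). In each of these 3 genes a dimmer probe set showed the larger fall. For Ndufb4 the brightest probe set had 9.31, 9.21 and 9.24 against 9.48, 9.51 and 9.52 (-0.25, limma adjusted p = 0.00643), the second fell by 0.21 (adjusted p = 0.0323), and a further one below the median level stood at 0.11 (adjusted p = 0.183).

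Ndufa11 and Ndufa10 had probe sets called in both directions. For Ndufa11 the brightest had 8.81, 8.75 and 8.84 in the hydrogen lungs against 9.09, 9.04 and 9.12 in the control lungs, a log2 fold change of -0.28 (SE 0.05, limma adjusted p = 0.00405). Its dimmer probe set had 5.55, 5.64 and 5.70 against 5.13, 5.11 and 4.90, a log2 fold change of 0.58 (SE 0.08, limma adjusted p = 0.000844), and the mean of the 2 was 0.15 (adjusted p = 0.0371). The second probe set of Ndufa10, below the median level, had 4.75, 4.74 and 4.59 against 4.46, 4.53 and 4.46 and rose by 0.21 (SE 0.06, limma adjusted p = 0.0247). These and the dimmest probe set of Ndufs8 were the 3 probe sets of 70 that rose (4.29%), against 24.3% of all probe sets.

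Over all 70 probe sets, 41 were lower (58.6%), against 22.8% of all probe sets, and the median log2 fold change was -0.25, against 0.02. Of the 20 genes with at least 2 probe sets, 7 had all of them lower, 8 had some lower and some not past the threshold, 3 had calls in both directions, and Ndufa3 and Ndufb8 had none called. The remaining 17 genes rested on a single probe set. Among the 18 genes with at least 2 probe sets above the median level, the brightest had the lowest fold change in 11 and a dimmer one in 7.

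**Figure D2:**
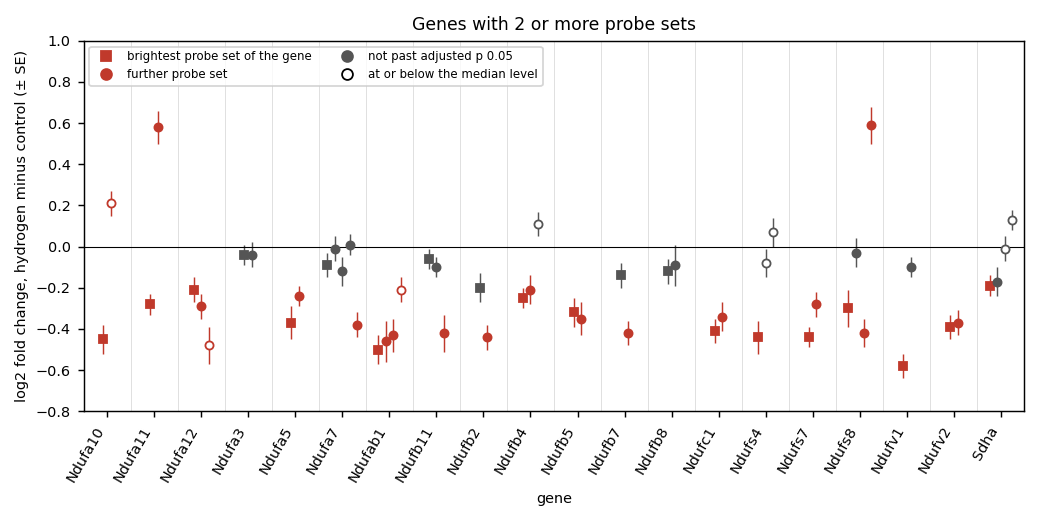
Log2 fold change, hydrogen minus control, with its standard error (vertical axis, log2 units) for every probe set of the 20 genes with at least 2. Squares are the brightest probe set of a gene, red marks a limma adjusted p under 0.05, grey does not, and open points lie at or below the median level of all probe sets. Red points above 0 are a probe set each of Ndufs8 (0.59), Ndufa11 (0.58) and Ndufa10 (0.21).

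Ndufab1, the acyl carrier protein that serves mitochondrial fatty acid synthesis and also sits in both arms of complex I, docked by Ndufa6 and Ndufb9, fell with all of its 4 probe sets. The brightest had 8.85, 8.63 and 8.85 in the hydrogen lungs, against 9.33, 9.25 and 9.24 in the control lungs, a log2 fold change of -0.50 (SE 0.07, limma adjusted p = 0.0013). The 4 probe sets lay between -0.50 and -0.21, each without overlap between the groups. Ndufa4 had 9.95, 9.73 and 9.98 against 10.37, 10.16 and 10.30, a log2 fold change of -0.39 (SE 0.08, limma adjusted p = 0.0066). Ndufa4l2, a related gene outside the rule, stood at 0.20 (adjusted p = 0.0453). The array also carries 2 probe sets annotated to Ndufs5-ps, a pseudogene of Ndufs5. The first fell, with 8.54, 8.39 and 8.57 in the hydrogen lungs against 9.21, 9.25 and 9.16 in the control lungs (-0.71, limma adjusted p = 0.000299), and the second, which can detect related genes, had 9.17, 9.02 and 9.11 against 9.14, 9.12 and 9.11 (-0.02, adjusted p = 0.764).

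Complex II had 3 of 4 genes lower and a median of -0.25. In the middle of these genes' levels, 7.32 to 9.43, 50.9% of all genes were lower, with a median of -0.19. Sdhc, a membrane anchor that forms the ubiquinone site with Sdhd, had 7.03, 7.20 and 7.19 in the hydrogen lungs, against 7.86, 7.56 and 7.55 in the control lungs, a log2 fold change of -0.52 (SE 0.09, limma adjusted p = 0.00302). Sdhb, the iron-sulfur subunit, had 9.58, 9.34 and 9.49 against 9.90, 9.71 and 9.71, a log2 fold change of -0.30 (SE 0.08, limma adjusted p = 0.0162). Sdha, the flavin subunit that oxidises succinate, had 9.31, 9.23 and 9.27 against 9.45, 9.48 and 9.44, a log2 fold change of -0.19 (SE 0.05, limma adjusted p = 0.0193). Every hydrogen lung was below every control lung in these genes. Sdhd, the other anchor, had 6.92, 7.06 and 7.03 against 7.17, 7.14 and 7.12 and was not past the threshold at -0.14 (SE 0.06, limma adjusted p = 0.0776), although its groups did not overlap either.

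The second probe set of Sdha had 9.26, 9.14 and 9.07 in the hydrogen lungs against 9.39, 9.27 and 9.32 in the control lungs (-0.17, limma adjusted p = 0.065). Its remaining 2 probe sets lay below the median level at -0.01 and 0.13 (adjusted p = 0.868 and 0.0734). Without the second hydrogen lung the count of lower complex II genes was 1 of 4, and it was also 1 of 4 after cyclic loess and after renewed quantile normalisation. Sdhc was lower under every setting that held its value. The promoters of Sdha and Sdhd are among those shown with NRF1 letters.

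The level at which a gene is measured moved with its fold change on these arrays. The 37 genes had mean levels from 7.07 to 10.86, far above the median of 4.80 over all probe sets, and 32 of them lay in decile 10 of gene level, the brightest. Among all 4668 genes within that range of levels, 48.3% were lower and 4.73% were higher, with a median log2 fold change of -0.18. Within the middle 50% of the members' levels, 8.94 to 9.65, 42.3% of 667 genes were lower and their median was -0.14. In that decile, 35.0% of all genes and 21 of the 32 members were lower, with medians of -0.10 and -0.28. The 67.6% of members thus stands above the share at like levels by less than it stands above the 25.9% of all genes. The hydrogen arrays also had a narrower spread over all probe sets, with SDs of 1.80 to 1.81, against 1.90 to 1.92 on the control arrays. The array's control probe sets differed between the groups too. Of 18 for the bacterial and phage transcripts used as hybridisation controls, 13 were lower and 0 higher, with a median of -0.40 and a range of -0.97 to 0.03. Of 27 for Bacillus transcripts, 14 were lower and 0 higher, with a median of -0.25 and a range of -0.70 to 0.10. These sequences are not from mouse, and their medians are of the size of the members' -0.30. The 3 probe sets of 18S ribosomal RNA were lower, at -0.95 to -0.48, and 9 of 23 sets of nonspecific probes were higher, by up to 1.07. These 9 were the sets richest in G and C, GC17 (0.17) to GC25 (1.07), while the others lay between -0.04 and 0.10. Of 17 tag sets 6 were higher and 0 lower, with a median of 0.13. The probe sets at the 3′ end, middle and 5′ end of Gapdh stood at -0.23, -0.31 and -0.39 (limma adjusted p = 0.00845, 0.0261 and 0.0357), and those of beta-actin at 0.08, 0.04 and -0.01 (adjusted p = 0.242, 0.668 and 0.964). What part of the members' fall goes with these differences was not tested beyond the 2 renewed normalisations above.

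**Figure D3:**
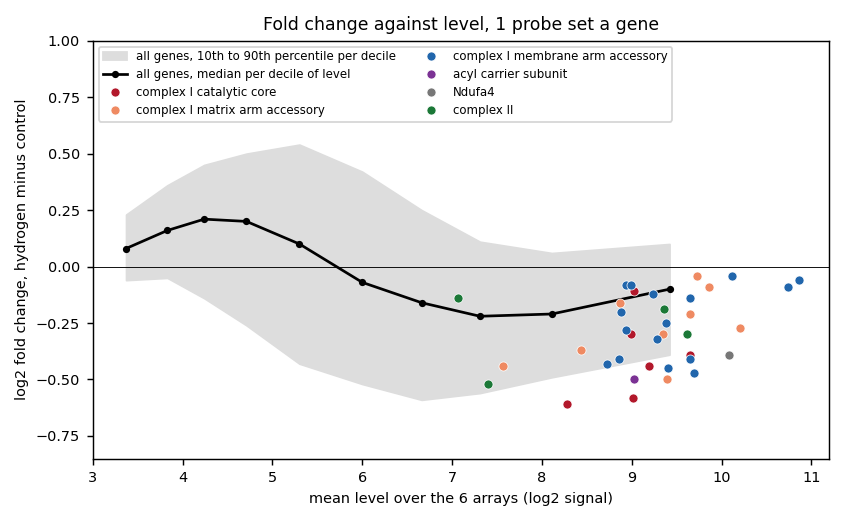
Log2 fold change, hydrogen minus control (vertical axis), against mean level over the 6 arrays (horizontal axis, log2 signal) for the 37 genes, coloured by subunit group. The black line is the median of all genes in each decile of level and the grey band holds the genes between the lowest and highest deciles of fold change. Members lie at the right, with a median of -0.28 in the brightest decile, where the median of all genes is -0.10.

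Genes that help assemble both complexes were lower in part, and 0 were higher. Of 15 complex I assembly factors measured, 6 were lower (40.0%) and the median log2 fold change was -0.16. Among all genes in the middle 50% of this list's levels 33.6% were lower, with a median of -0.08, so the share of the list was close to that of genes at like levels. The lower ones included Tmem70, which also serves ATP synthase assembly (-0.59, limma adjusted p = 0.00162), Ndufaf1 (-0.37, adjusted p = 0.00884), Foxred1 (-0.32, adjusted p = 0.00663) and Ndufaf4 (-0.25, adjusted p = 0.0465). Without the second hydrogen lung 3 of the 15 were lower. The count was 3 after renewed quantile normalisation, 7 after cyclic loess, 8 with the mean of a gene's probe sets and 11 after median centring. All 4 complex II assembly factors were lower, with a median of -0.30. Among all genes at like levels 40.0% were lower, with a median of -0.14. Sdhaf1, which helps iron-sulfur clusters into Sdhb, was lowest at -0.42 (limma adjusted p = 0.00178), followed by Sdhaf2, which helps the flavin onto Sdha (-0.32, adjusted p = 0.00768), Sdhaf3 (-0.27, adjusted p = 0.0124) and Sdhaf4 (-0.18, adjusted p = 0.0286). After cyclic loess and after renewed quantile normalisation 2 of these 4 remained past the threshold. The count was 3 with the replicate number as a block and with a trended robust prior.

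Other enzymes that reduce ubiquinone had 5 of 6 genes lower and a median of -0.37, against 43.2% lower and a median of -0.16 for all genes at like levels. Prodh, the proline dehydrogenase, had 6.19, 6.44 and 6.35 in the hydrogen lungs, against 6.98, 6.98 and 6.96 in the control lungs, a log2 fold change of -0.65 (SE 0.07, limma adjusted p = 0.000451). Etfdh, which brings in electrons from fatty acid oxidation, stood at -0.57 (limma adjusted p = 0.00419), Gpd2, the mitochondrial glycerol phosphate dehydrogenase, at -0.52 (adjusted p = 0.00132), and Sqor, which oxidises sulfide, at -0.22 (adjusted p = 0.025). The count was 3 of 6 after cyclic loess or renewed quantile normalisation and without the second or the third hydrogen lung. Of 10 genes of ubiquinone synthesis 4 were lower (median -0.19), about the share of all genes at like levels, of which 41.5% were lower with a median of -0.15. Coq9, a lipid-binding partner of the hydroxylase Coq7, was lowest at -0.77 (limma adjusted p = 0.000487), followed by the kinase-like Coq8a at -0.53 (0.00163), Coq7 at -0.43 (0.00732) and Pdss2, which builds the side chain, at -0.27 (0.0102). Renewed quantile normalisation left 2 of these 10 lower.

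The later complexes of the chain were measured beside these. Complex III had 7 of 8 genes lower (median -0.38), complex IV 7 of 13 lower and 1 higher (median -0.16), and complex V 10 of 15 lower (median -0.26). All genes in the middle of the levels of each list had 44.1%, 40.5% and 32.8% lower. The lowest values of complex IV were those of the isoforms typical of heart and skeletal muscle: Cox7a1 at -2.00, Cox6a2 at -1.41 and Cox8b at -1.34 (limma adjusted p = 0.00309, 0.00203 and 0.00461). The gene that rose was Cox4i2, an isoform known from lung, at 0.52 (adjusted p = 0.00105) and below the median level of all probe sets. After cyclic loess the lower counts were 3 of 8, 4 of 13 and 6 of 15, and without the second hydrogen lung complex IV had 4 of 13. Cox6a2 is also among the cardiac muscle markers below.

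**Figure D4:**
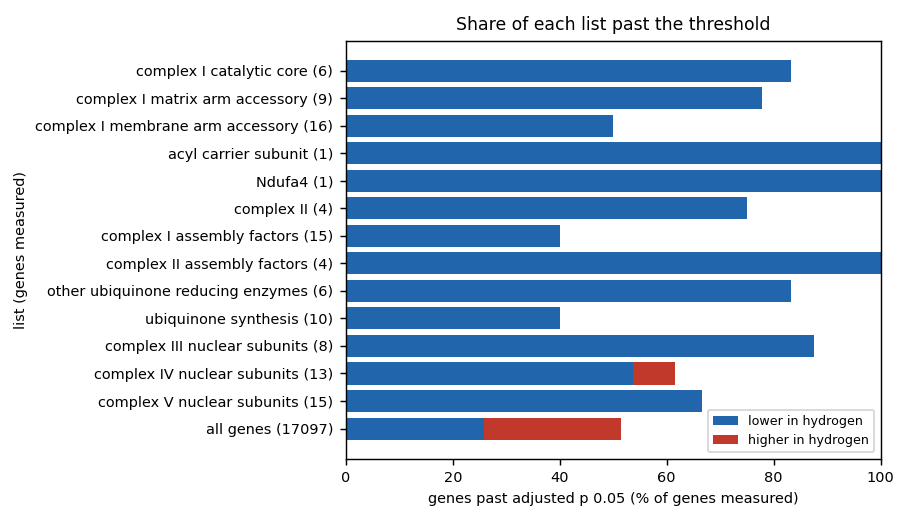
Share of the measured genes of each list past a limma adjusted p of 0.05 (horizontal axis, percent), lower in hydrogen in blue and higher in red, with the number of genes measured in brackets. The catalytic core of complex I has 83.3% lower and complex II has 3 of 4 genes, against 25.9% of all genes. Among all genes in the middle of the levels of each of these lists, which are not drawn, 41.6% and 50.9% were lower. The shares drawn hold for the values as deposited, and that of the members as a whole is smaller after cyclic loess (40.5%).

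Markers of the tissue and of other cell types were read beside the members. Of 10 markers of lung epithelium and endothelium, 4 were lower (Foxj1, Ager, Hopx and Pecam1) and the median was -0.05. Their summed linear signal ran from 35900 to 36000 in the hydrogen lungs and from 36600 to 37500 in the control lungs, with Sftpc at 13.17 and 13.15 on the log2 scale, so lung markers were bright in both groups. Of 23 cardiac muscle markers, 21 were lower and Myl2 was higher, with a median of -1.63 and a summed linear signal of 1690 to 5970 in the hydrogen lungs, against 11800 to 14400 in the control lungs. Myl2, a myosin light chain of ventricular muscle, and Nppb lay at or below the median level of all probe sets. Adipocyte markers had 6 of 12 lower and 2 higher (median -0.26), with sums of 539 to 3350 in the hydrogen lungs and 3110 to 3470 in the control lungs. Skeletal muscle markers had 3 of 12 lower and 5 higher (median 0.16), with sums of 305 to 409 in the hydrogen lungs and 598 to 690 in the control lungs, and 8 of them lay at or below the median level. Among all genes in the middle of the levels of each of these 4 lists, in the order given, 23.1%, 49.8%, 26.0% and 11.3% were lower. Higher at those levels were 7.76%, 7.31%, 31.3% and 48.1%. The 41.7% of skeletal muscle markers that were higher was thus near the share at like levels.

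The second hydrogen lung was lowest in the members and in the cardiac markers alike. As medians over genes of the log2 signal minus the control mean, the 37 genes stood at -0.25, -0.38 and -0.26 in the hydrogen lungs, against 0.04, -0.03 and -0.02 in the control lungs. The cardiac markers stood at -1.02, -2.56 and -1.31 in the hydrogen lungs, against 0.14, -0.09 and -0.04 in the control lungs. Lung markers stood at -0.07, -0.08 and -0.07 in the hydrogen lungs. Adipocyte markers, at -0.11, -0.41 and -0.45, had their lowest median in the third hydrogen lung. Their brightest genes were lowest in the second: Car3 had 10.81, 5.66 and 8.56 in the hydrogen lungs, and Fabp4 had 9.79, 5.04 and 7.58. Adipoq, at 7.23, 3.44 and 4.60, was also lowest there, as were Cidea, Cpt1b, Slc36a2 and Pparg. The third lung was lowest for Ucp1, Elovl3, Plin4 and Lep, and Retn was equal in both. Skeletal muscle markers, at 0.24, 0.07 and 0.16, were lowest in the second hydrogen lung, as the cardiac markers were. That second lung had the lowest value of its group in 31 of the 37 genes, and the first control lung had the highest of its group in 23. Without the second hydrogen lung 20 genes were lower, with a median of -0.26, and 20 of the 25 genes stayed lower when each array was left out in turn. The genes that were lost in at least 1 of these were Ndufa9, Ndufa12, Ndufs8, Sdha and Sdhb. The second hydrogen lung was also lowest in each subunit group. The catalytic core stood at -0.38, -0.45 and -0.42 in the hydrogen lungs, the matrix arm at -0.22, -0.28 and -0.24, and the membrane arm at -0.17, -0.30 and -0.22. Complex II stood at -0.21, -0.33 and -0.23, Ndufab1 at -0.42, -0.64 and -0.42, and Ndufa4 at -0.33, -0.55 and -0.30. What part of the members' fall goes with the cardiac markers was not tested.

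**Figure D5:**
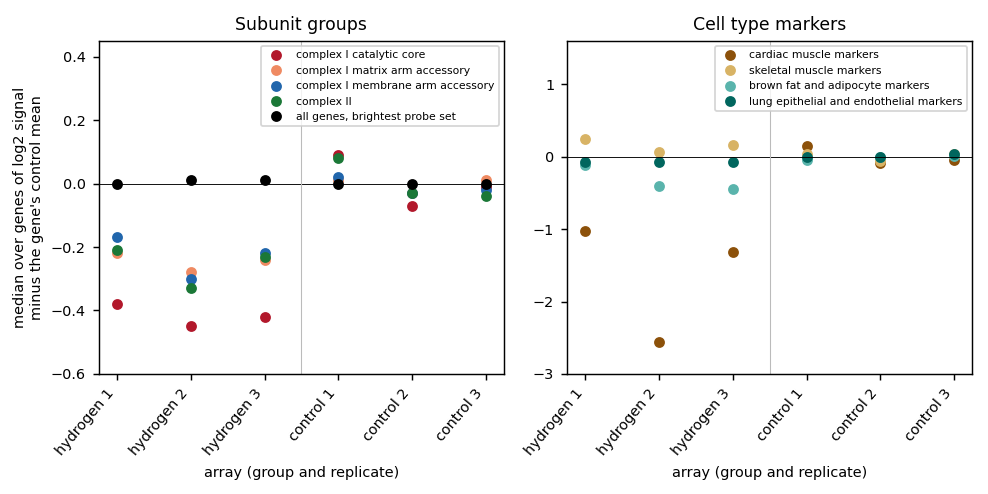
Median over genes of the log2 signal minus each gene's control mean (vertical axis, log2 units) on each of the 6 arrays, for the 4 subunit groups of more than 1 gene and for all genes (left) and for cell type markers (right, on a wider scale). These 4 groups are below 0 on the 3 hydrogen arrays, from -0.45 to -0.17, while all genes stay at 0.00 to 0.01. Cardiac muscle markers run from -2.56 to -1.02 on the same arrays.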

How the data were processed

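Each lung was measured on 1 array. The deposited table holds log2 signals per probe set, made with RMA and Affymetrix Expression Console, per the submitters' processing notes. Per the labels' protocols, lungs were kept in RNAlater, RNA was column-purified and the labelled antisense RNA was read on MG-430 PM Array Strips. The sources used here do not give versions, or whether RMA ran on the 6 arrays together. Neither scanner files nor a genome were used.

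Of 45141 probe sets 104 are controls by name. The others were fitted together by lmFit and eBayes of limma 3.58.1 (R 4.3.3), hydrogen minus control, with Benjamini-Hochberg adjustment over all 45037, no filter and a threshold of 0.05. Probe sets naming 1 gene numbered 28898, several 551 and none 15588. All 37 symbols matched RefSeq by Entrez ID. A gene took its probe set with the highest mean, and disagreeing probe sets are given. An exact permutation of 3 against 3 arrays cannot go below a two-sided p of 0.1, and 3 arrays a group limit the precision. The fit was tested on simulated data. Figures used matplotlib 3.10.9 in Python 3.11.15.

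The members and lists were chosen with earlier results of these data known. Array values were given for the core, complex II, Ndufab1, Ndufa4, the 3 lowest and 2 highest genes of each accessory group, and genes whose probe sets disagreed; of other lists, up to 4 called genes with the largest change were named. Prodh's array values, Ndufa4l2, Ndufs5-ps and the markers were named after their values were seen. Alternatives were a replicate block, median centring, renewed quantile normalisation, cyclic loess, array weights, a trended robust prior, leaving out dim or shared probe sets, the mean of a gene's probe sets, and leaving out each array.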

Additional observations from a re-analysis of the deposited data

How the results depend on the processing

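Cyclic loess left 26 lower probe sets, 15 lower genes and medians of -0.14 (probe sets) and -0.15 (genes). Renewed quantile normalisation left 24 and 14, with medians of -0.12 and -0.15. These compare with 41 probe sets, 25 genes and medians of -0.25 and -0.30 as deposited. Median centring gave medians of -0.34 and -0.39. The median over probe sets was -0.28 both without probe sets that can detect related genes and without those at or below the median level. Leaving out in addition those that can detect several transcripts, chosen after seeing the data, gave 21 lower of 36 probe sets and 20 of 27 genes. The mean of a gene's probe sets gave 1 higher gene, Ndufa11, which reversed to 0.15 (limma adjusted p = 0.0371). Ndufa9 reversed to 0.01 after cyclic loess (adjusted p = 0.935) and 0.02 after renewed quantile normalisation (adjusted p = 0.813). The cause was not tested.

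On leaving out each array in turn, 35 to 40 probe sets were lower and 2 to 3 higher, 20 to 24 genes were lower, and the medians ran from -0.27 to -0.22 (probe sets) and from -0.34 to -0.26 (genes). Of the 25 lower genes, 12 were lower under every setting that held their value: Ndufa4, Ndufa6, Ndufab1, Ndufb9, Ndufb10, Ndufc1, Ndufc2, Ndufs1, Ndufs7, Ndufv2, Ndufv3 and Sdhc. With the replicate number as a block 40 probe sets and 25 genes were lower, 3 probe sets were higher and the medians stayed at -0.25 and -0.30; 24 of the 25 genes were the same. The count of the other ubiquinone-reducing enzymes was 3 of 6 with this block, against 5. Same-numbered arrays correlated at 0.0784, 0.0287 and -0.109 in their deviations from the group means. Arrays of different numbers correlated at -0.142 to 0.112. These values show no sign that the numbers pair the samples, but with 3 arrays a group they cannot exclude it. Array signal, and not read depth, limits these values: 8 of the 70 probe sets lay at or below the median level, where 32.0% of all probe sets were higher and 7.3% lower.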
